A study of Homo sapiens with 6 samples.

Results

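The potassium channel genes described here are the table rows that hold an annotated protein-coding transcript and a symbol made of KCN, letters and a number. Of 95 such loci among 60835 in the table, 64 had a count of 12 or more in at least 3 of the 6 libraries and were retained. The samples were ARPE-19, a human retinal pigment epithelium line in long use and labelled wild type, grown for 72 h in high or in normal glucose medium, with 3 libraries of RNA sequencing per group. The glucose concentrations are not given in the sources used here, nor whether the libraries of a group were separate cultures, and the p-values speak only for the spread among these 6 libraries, which may be technical. No arm controls for osmolarity, so glucose and osmolarity cannot be told apart.

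Potassium channels are membrane proteins that let potassium leave or enter a cell along its electrochemical gradient, and they set the resting voltage. They fall into inward rectifiers (KCNJ genes), voltage-gated channels (KCNA to KCND, KCNF to KCNH, KCNQ, KCNS and KCNV), tandem pore leak channels (KCNK), and channels opened by intracellular calcium, sodium or pH (KCNMA, KCNN, KCNT and KCNU). Auxiliary subunits (KCNAB, KCNE, KCNIP and KCNMB) form no pore and alter how channels open or reach the membrane. In the retinal pigment epithelium, the cell layer that lies against the photoreceptors, inward rectifier and M-type channels recycle potassium across the cell, and channels opened by calcium have been described there as well.

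The libraries held 81616741 to 87748820 counts. Normal glucose 3 differed most from the other libraries of its group. Over loci with a mean count of 100 or more, chi-square per degree of freedom was 383 and 442 between it and normal glucose 1 and 2, against 163 between those 2 and 96.2 to 125 among the high glucose libraries. Of markers of the labelled cell type, MITF and OTX2 averaged 5.57 and 7.34 FPKM in high glucose and 9.03 and 6.39 FPKM in normal glucose, whereas RPE65 was near 0 (0.00457 FPKM in high glucose, 0.00281 FPKM in normal glucose). Of 11 such markers tested, KRT8 and KRT18 rose and BEST1 fell, and the summed FPKM of all 14 listed was 396 to 420 in high glucose and 98.7 to 187 in normal glucose. KRT8 and KRT18 made up most of that sum, and the median log2 change of the 11 was -0.05. The summed FPKM of 10 photoreceptor and neuron markers was 1.62 to 2.60 in high glucose and 0.962 to 1.24 in normal glucose, with 1 of 5 tested higher (PDE6B) and CRX and STMN2 listed at 0. For 8 fibroblast markers it was 6.43 to 7.36 in high glucose and 7.20 to 16.6 in normal glucose, with 1 of 8 lower (COL1A1), and for 6 glia markers 4.74 to 7.57 in high glucose and 8.86 to 13.8 in normal glucose, with 1 of 4 lower (GLUL) and AQP4 listed at 0. For 8 endothelium and immune markers it was 29.0 to 37.0 in high glucose and 23.3 to 31.6 in normal glucose, nearly all from the CD68 locus, which is shared with EIF4A1, and none of 4 tested was called. The part of other cell types in the results was not tested, and in bulk RNA fewer cells of a type and less RNA per cell cannot be told apart.

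The members were low in abundance. The median of their mean FPKM (fragments scaled to transcript length and library size, as deposited by the authors) was 0.176, against 3.42 for the 13786 protein-coding loci tested, and 13 of them averaged at least 1 FPKM. Only loci retained through the count minimum are described with values. Among the 31 loci below it, 15 had no count in any library, and 5 (KCNJ1, KCNJ3, KCNMB2, KCNK13 and KCNK3) had 2 libraries with 12 counts or more, with highest counts of 23, 22, 21, 16 and 12. Just inside, 8 loci had exactly 3 such libraries. Among those, KCNA2 had 21, 19 and 16 counts in high glucose 1, 2 and 3, against 10, 8 and 8 in normal glucose 1, 2 and 3. KCNJ9 had 6, 0 and 0 counts in high glucose 1, 2 and 3, against 30, 19 and 28 in normal glucose 1, 2 and 3. These 2 loci passed the minimum in 1 group only. Others left out were KCNJ6, KCNJ16 and KCNJ18 of the inward rectifiers; KCNA1, KCNA3, KCNA5, KCNA6, KCNA10, KCNC2, KCNF1, KCNG4, KCNH4, KCNH6 and KCNQ1 of the voltage-gated channels; KCNK4, KCNK9, KCNK10, KCNK16, KCNK17 and KCNK18, KCNT1, KCNE2, KCNIP1, KCNIP4 and KCNMB1.

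High glucose was set against normal glucose with edgeR's quasi-likelihood test across all 25025 loci that passed its own filter, and a locus is called here where p after Benjamini-Hochberg adjustment is under 0.05. Of the 64 potassium channel loci, 6 rose (among them KCNU1, KCNN4, KCNC4, KCNK12 and KCND1) and 6 fell (KCNK5, KCNG1, KCND2, KCNJ2, KCNG3 and KCNH1) in high glucose. These 12 are 18.8% of the members, against 25.5% of all tested protein-coding loci (13.1% higher, 12.4% lower). Of all tested loci, 19.6% were called (9.75% higher, 9.86% lower), which is close to the members' share. The members had fewer counts than protein-coding loci (median of the mean count 117, against 2151), so these shares are not matched on count. With the DESeq2 Wald test 17 members were called, against 34.8% of protein-coding loci. KCNJ9, which met the count minimum through normal glucose alone, is among these 17. With only protein-coding loci tested, 14 of 64 members were called, against 28.8%, and with 12 or more counts required in all 6 libraries 14 of 46 were, against 29.2%. At an unadjusted p under 0.05 there were 19, KCNJ9 among them. The share of protein-coding loci at that threshold was not counted, so nothing is read from this number. By mean count, 2 of 30 members under 100 were called, against 10.2% of protein-coding loci in that range, and 10 of 24 from 100 to 1000, against 26.1%. None of the 10 members over 1000 was called, against 28.4%. Without normal glucose 3, KCNK6, KCNMA1, KCNT2, KCNAB3 and KCNE5 of them were called. That omission also raised the called share of all protein-coding loci, from 25.5% to 39.1%. The loci of KCNAB3 and KCNE5 are shared with TRAPPC1 and ACSL4. The groups did not overlap at 22 of 64 members (34.4%, with 11 higher and 11 lower), against 49.5% of protein-coding loci (25.9% higher, 23.6% lower). KCNA2 (higher) and KCNJ9 (lower) are among the 22. Each passed the count minimum in 1 group only, so nothing is read from their separation. This comparison is not matched on count either. The median log2 change of the members was -0.21, against 0.01 for all tested protein-coding loci. All 12 called members were pore-forming subunits, of which 53 were retained, and none of the 11 auxiliary subunits was called. Without normal glucose 3, 3 were (KCNAB3, KCNE5 and KCNMB4), against 39.1% of protein-coding loci. The calls at the shared loci of KCNAB3 and KCNE5 cannot be assigned to the subunit genes.

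**Figure D1:**
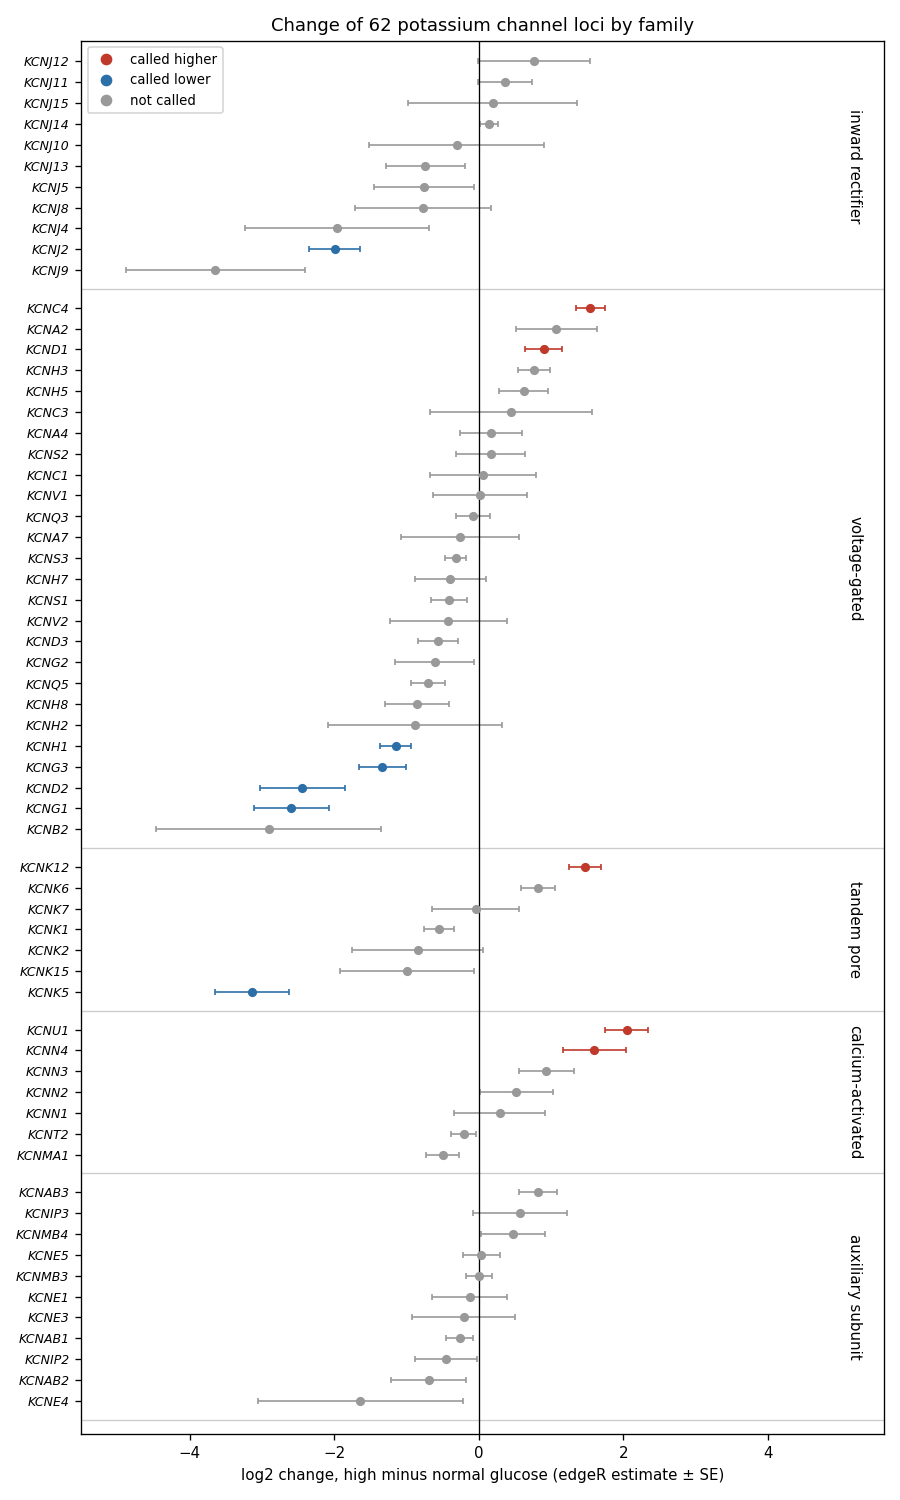
Log2 change (high minus normal glucose, x axis) of 62 of the 64 retained potassium channel loci, grouped by family down the page, with bars of ± 1 SE from edgeR. Red and blue points are 5 of the 6 loci called higher and the 6 called lower, grey points were not called; called loci lie on both sides within the voltage-gated and tandem pore families.

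Promoters of 4 called channel genes are shown, the member with the smallest adjusted p in each direction (KCNC4, which rose, and KCNK5, which fell) and the 2 that hold CACGTG (KCNN4, which rose, and KCND2, which fell). CACGTG is the E-box letters within the element bound by glucose-responsive factors. Each runs from 250 bases before to 50 bases after the RefSeq start of the gene (build GRCh38.p14), 5′ to 3′ on the gene's strand. Capitals mark GC boxes (GGGCGG or its reverse complement CCGCCC) and CACGTG.
KCNC4, chr1:110210064-110210363, plus strand: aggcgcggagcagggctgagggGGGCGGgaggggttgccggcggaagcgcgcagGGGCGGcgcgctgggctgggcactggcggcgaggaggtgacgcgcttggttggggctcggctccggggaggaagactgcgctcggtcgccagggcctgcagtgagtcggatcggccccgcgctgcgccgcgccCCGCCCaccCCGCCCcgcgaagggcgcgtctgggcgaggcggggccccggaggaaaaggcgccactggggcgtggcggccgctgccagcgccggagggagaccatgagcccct
KCNN4, chr19:43780924-43781223, minus strand: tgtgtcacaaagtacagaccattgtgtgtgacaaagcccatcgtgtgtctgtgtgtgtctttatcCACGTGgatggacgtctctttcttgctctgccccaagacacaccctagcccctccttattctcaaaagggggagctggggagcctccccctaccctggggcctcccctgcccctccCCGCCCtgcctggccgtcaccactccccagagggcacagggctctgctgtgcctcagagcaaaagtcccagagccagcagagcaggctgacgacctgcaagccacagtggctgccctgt
KCNK5, chr6:39229426-39229725, minus strand: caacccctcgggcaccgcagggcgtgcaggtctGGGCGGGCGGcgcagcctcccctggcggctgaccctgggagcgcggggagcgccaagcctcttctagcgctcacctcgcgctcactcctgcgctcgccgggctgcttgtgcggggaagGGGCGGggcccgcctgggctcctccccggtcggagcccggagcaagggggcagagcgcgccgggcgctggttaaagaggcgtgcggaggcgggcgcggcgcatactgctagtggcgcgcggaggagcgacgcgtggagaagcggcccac
KCND2, chr7:120272925-120273224, plus strand: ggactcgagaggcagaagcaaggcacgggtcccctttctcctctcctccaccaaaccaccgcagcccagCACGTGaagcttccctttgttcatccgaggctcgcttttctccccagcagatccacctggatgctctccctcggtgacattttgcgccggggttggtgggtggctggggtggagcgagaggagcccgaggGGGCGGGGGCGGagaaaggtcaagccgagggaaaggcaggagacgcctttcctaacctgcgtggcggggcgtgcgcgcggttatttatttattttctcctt
A promoter sequence was matched by symbol for 44 of the 64 members and for 8 of the 12 called ones. The GC box letters, on either strand, were found in 33 of the 44 (75.0%) and in 8 of the 8 called, against 45.0% of 35116 promoters of 300 bases. These 35116 are not restricted to genes detected here, as the 44 are, so the sets are unlike and an enrichment was not tested. KCNC4 held 4 of them, KCNK5 held 3 (with 1 overlapping pair, each counted), KCND2 held 2 and KCNN4 held 1. CACGTG was found in 2 of the 44, against 7.26% of all promoters, and both are called genes that moved in opposite directions. TGACGTCA (the cyclic AMP element), TGGAAA (the core of the tonicity element) and TATAAA (the TATA box), searched on both strands, were in 0, 7 and 4 of the 44, against 1.85%, 20.7% and 11.5% of all promoters. Such matches describe letters and not binding. The motifs were chosen with the results known.

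Among the inward rectifiers, which carry potassium inward more easily than outward, 1 of 11 retained loci of 16 was called. KCNJ2, a strong rectifier that holds the resting voltage of heart and muscle cells (chr17:70168673-70180044, plus strand), was at 2.84, 2.23 and 1.19 CPM in high glucose 1, 2 and 3, against 6.36, 8.19 and 10.4 CPM in normal glucose 1, 2 and 3. Its groups did not overlap, and high glucose 3 was the lowest library. It fell (log2 change -2.00, SE 0.356, adjusted p = 0.0121 by edgeR), although its adjusted p was 0.0556 with high glucose 2 left out. The locus overlaps KCNJ2-AS1 on the other strand, which had a mean of 49.7 counts against 445 for KCNJ2, and nothing states that counting used strand. KCNJ13, the rectifier of the apical membrane of the retinal pigment epithelium, was barely detected, at 28, 26 and 19 counts in high glucose 1, 2 and 3, against 37, 18 and 64 counts in normal glucose 1, 2 and 3, and was not called (log2 change -0.74, SE 0.551, adjusted p = 0.395 by edgeR). Its normal glucose libraries spread from 18 to 64 counts. Its locus lies opposite GIGYF2, which had a mean of 9003 counts. KCNJ9, a subunit of G protein-gated channels, had the largest log2 change of the family in size, -3.64 (adjusted p = 0.0811), on the few counts given above. It met the count minimum through normal glucose alone, so nothing is read from its call in some alternatives.

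KCNJ11 and KCNJ8 form the pore of ATP-sensitive channels, which close when ATP rises. KCNJ11 was at 1.5, 2.46 and 1.74 CPM in high glucose 1, 2 and 3, against 1.81, 1.79 and 0.818 CPM in normal glucose 1, 2 and 3 (log2 change 0.36, adjusted p = 0.539), and the groups overlapped. KCNJ8 had 40, 14 and 4 counts in high glucose 1, 2 and 3, against 10, 23 and 62 counts in normal glucose 1, 2 and 3, with a log2 change of -0.77 (adjusted p = 0.612). Of their sulfonylurea receptor subunits, ABCC8 was listed at 0 in every library, and ABCC9 averaged 18 ± 1.22 CPM in high glucose and 51.7 ± 35.8 CPM in normal glucose (SD, n = 3 each), with a log2 change of -1.52 (adjusted p = 0.119). KCNJ14 gave the highest FPKM of the family, 4.86 ± 0.323 FPKM in high glucose and 4.29 ± 0.547 FPKM in normal glucose (SD, n = 3 each), but its locus also holds GRWD1 and CYTH2, so the level cannot be assigned to the channel gene (log2 change 0.14, adjusted p = 0.494). The remaining 5 (KCNJ10, KCNJ12, KCNJ15, KCNJ4 and KCNJ5) had mean counts of 10.7 to 20.7 and were not called. KCNJ12 has a near-identical copy, KCNJ18, and counting can split reads between them. The family's median log2 change was -0.74, with 4 values above and 7 below 0.

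Of 28 retained voltage-gated loci (of 40), 3 rose and 4 fell. KCNC4, a fast channel that inactivates quickly (chr1:110210314-110283100, plus strand), was at 12.4, 12.7 and 11.8 CPM in high glucose 1, 2 and 3, against 5.06, 4.31 and 3.28 CPM in normal glucose 1, 2 and 3. Its groups were far apart and it had the smallest adjusted p of all members (log2 change 1.54, SE 0.198, adjusted p = 0.0049 by edgeR). KCND1 and KCND2 belong to the A-type channels, which open briefly below the firing threshold, and they moved in opposite directions. KCND1 (chrX:48961378-48971844, minus strand) was at 2.23, 3.04 and 3.45 CPM in high glucose 1, 2 and 3, against 1.59, 1.78 and 1.31 CPM in normal glucose 1, 2 and 3, and rose by the narrowest margin (log2 change 0.89, SE 0.255, adjusted p = 0.0494 by edgeR). It was not called in any of the 6 fits with a library left out (adjusted p of 0.0687 to 0.166), nor with DESeq2 size factors (0.0507) or upper quartile scaling (0.0518). KCND2 (chr7:120273175-120750337, plus strand) was at 0.291, 0.137 and 0.182 CPM in high glucose 1, 2 and 3, against 0.416, 1.54 and 1.38 CPM in normal glucose 1, 2 and 3. Normal glucose 1 lay close to the high glucose libraries and the other 2 far above, and the gene fell (log2 change -2.44, SE 0.586, adjusted p = 0.0293 by edgeR). Leaving out high glucose 1, 2 or 3 gave adjusted p of 0.0691, 0.109 or 0.104, and leaving out normal glucose 2 gave 0.0904. KCND3, the third gene of this group, had a log2 change of -0.57 (adjusted p = 0.193).

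The silent subunits of the voltage-gated family (KCNF, KCNG, KCNS and KCNV) form no channel alone and join other voltage-gated subunits. 8 of 10 were retained, a grouping looked at after its values were seen, and 2 of them fell. KCNG1 (chr20:51003656-51023107, minus strand) was at 1.22, 0.991 and 0.886 CPM in high glucose 1, 2 and 3, against 5.12, 11 and 2.59 CPM in normal glucose 1, 2 and 3. The normal glucose libraries spread widely, with library 2 the highest, and all 3 lay above high glucose. KCNG1 fell (log2 change -2.59, SE 0.52, adjusted p = 0.017 by edgeR), by 1.89 without normal glucose 2, and leaving out high glucose 1, 2 or 3 gave adjusted p of 0.062, 0.0745 or 0.0766. KCNG3 (chr2:42442017-42493982, minus strand) was at 1.05, 0.889 and 0.753 CPM in high glucose 1, 2 and 3, against 2.13, 3.13 and 1.54 CPM in normal glucose 1, 2 and 3. The high glucose libraries were all lower than the normal ones, and it fell (log2 change -1.33, SE 0.327, adjusted p = 0.0313 by edgeR). The fits without high glucose 1, 2 or 3 gave adjusted p of 0.0811, 0.11 or 0.115, and those without normal glucose 1 or 2 gave 0.0704 or 0.085. KCNS3, the most abundant voltage-gated member by FPKM, averaged 2.65 ± 0.054 FPKM in high glucose and 3.21 ± 0.40 FPKM in normal glucose (SD, n = 3 each). Its high glucose libraries all lay below its normal glucose libraries, but it was not called (log2 change -0.32, adjusted p = 0.178). KCNS1 had a log2 change of -0.41 (adjusted p = 0.289). KCNB2, a delayed rectifier, had 12, 0 and 8 counts in high glucose 1, 2 and 3, against 59, 93 and 0 counts in normal glucose 1, 2 and 3, and the largest negative change of the family, -2.91 (adjusted p = 0.236), with normal glucose 3 at 0. Without that library it was called (-3.49, adjusted p = 0.0472).

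KCNH1, a channel of the ether-a-go-go group that is expressed in brain and in many tumours (chr1:210676823-211188507, minus strand), was at 1.61, 1.4 and 1.47 CPM in high glucose 1, 2 and 3, against 2.96, 3.19 and 3.8 CPM in normal glucose 1, 2 and 3. The spread within each group was small beside the distance between them, and it fell (log2 change -1.15, SE 0.211, adjusted p = 0.0133 by edgeR). With high glucose 1, 2 or 3 left out, the adjusted p was 0.0532, 0.067 or 0.0629. The locus also carries the names of a pseudogene, IPO8P1, and of clone transcripts. On the other strand it overlaps AC096636 and AC092017, with mean counts of 25.8 and 42.5, against 206 for KCNH1. AC092017 had a log2 change of -1.22 (adjusted p = 0.199 by edgeR), and nothing states that counting used strand. KCNH3, of the same group, was at 3.08, 3.2 and 2.32 CPM in high glucose 1, 2 and 3, against 1.74, 1.57 and 1.76 CPM in normal glucose 1, 2 and 3. Its groups did not overlap either, and it was not called (log2 change 0.76, adjusted p = 0.0529). KCNQ3 and KCNQ5 encode M-type channels, slow channels that also carry potassium current in this epithelium, and neither was called with all 6 libraries. KCNQ5 was at 8.46, 8.99 and 8.55 CPM in high glucose 1, 2 and 3, against 19, 10.2 and 13 CPM in normal glucose 1, 2 and 3, with a log2 change of -0.70 (adjusted p = 0.0807). Its groups did not overlap, but normal glucose 1 lay far above the other libraries. Without normal glucose 2 it was called lower (-0.88, adjusted p = 0.0458). KCNQ3 averaged 2.29 ± 0.102 FPKM in high glucose and 2.36 ± 0.85 FPKM in normal glucose (SD, n = 3 each), with a log2 change of -0.08 (adjusted p = 0.842), and the sign depended on which library was left out. A further 13 voltage-gated loci were not called. Their mean counts ran from 13.7 (KCNA2) to 305 (KCNH5) and their log2 changes from -0.88 (KCNH2, the cardiac repolarising channel) to 1.07 (KCNA2). The median log2 change of the voltage-gated loci was -0.29, with 12 values above and 16 below 0.

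**Figure D2:**
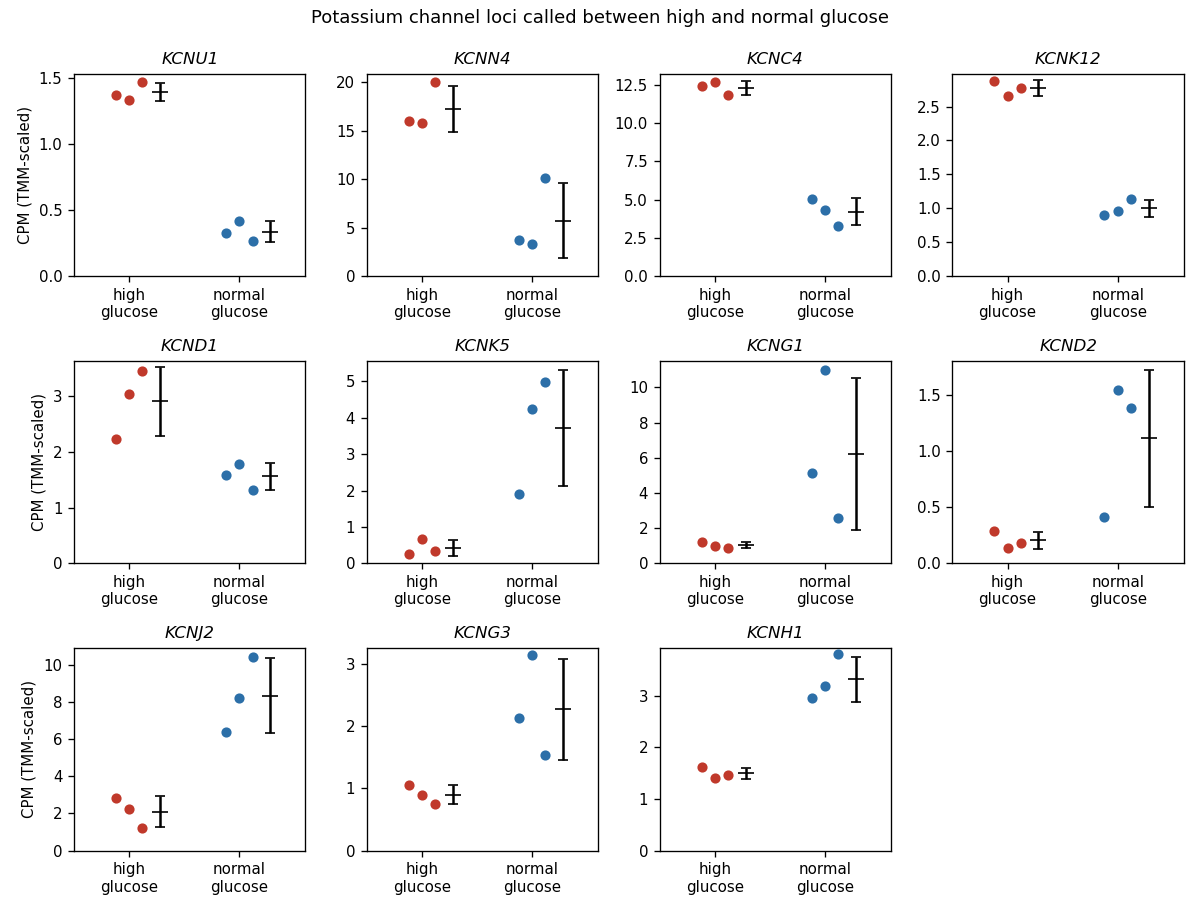
TMM-scaled CPM (y axis, from 0) of 11 of the 12 called potassium channel loci in each library, high glucose on the left in red and normal glucose on the right in blue. Black marks are the mean ± SD of 3 libraries; the groups do not overlap in any panel, and KCNN4, KCNG1 and KCND2 have the widest spread within normal glucose relative to their mean.

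The tandem pore channels carry background leak currents, and of 7 retained loci (of 15) 1 rose and 1 fell. KCNK5, which answers to alkaline pH and cell swelling (chr6:39188971-39229475, minus strand), was at 0.258, 0.672 and 0.328 CPM in high glucose 1, 2 and 3, against 1.92, 4.24 and 4.98 CPM in normal glucose 1, 2 and 3. All high glucose libraries were under 1 CPM, and the gene had the largest negative change among called members (log2 change -3.14, SE 0.511, adjusted p = 0.0091 by edgeR). Its adjusted p was 0.0506 without high glucose 3. KCNK12, a subunit of halothane-inhibited channels (chr2:47509290-47570985, minus strand), was at 2.88, 2.66 and 2.78 CPM in high glucose 1, 2 and 3, against 0.901, 0.967 and 1.14 CPM in normal glucose 1, 2 and 3. Libraries of a group lay close together, and it rose (log2 change 1.46, SE 0.218, adjusted p = 0.00734 by edgeR). It is among the loci that overlap a locus on the other strand, and reads of such a pair cannot be told apart where they overlap.

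KCNK6, a weakly conducting member that sits largely in endosomes and lysosomes, was the most abundant of the family, at 35.3, 35.1 and 36.9 CPM in high glucose 1, 2 and 3, against 16, 16.3 and 28.5 CPM in normal glucose 1, 2 and 3. Normal glucose 3 stood between the high glucose libraries and the other normal ones. The change missed the threshold (log2 change 0.82, SE 0.235, adjusted p = 0.0502 by edgeR), and without normal glucose 3 it was 1.15 (adjusted p = 8.89e-04). With all 6 libraries it was called in 8 alternatives, among them DESeq2 (adjusted p = 0.012), upper quartile scaling (0.0402) and protein-coding loci only (0.0401). KCNK1, a related subunit, averaged 10.3 ± 1.56 CPM in high glucose and 15.1 ± 3.22 CPM in normal glucose (SD, n = 3 each). Its groups did not overlap, and it was not called (log2 change -0.55, adjusted p = 0.108). KCNK2, which opens on membrane stretch, was at 1.56, 1.75 and 1.92 CPM in high glucose 1, 2 and 3, against 1.1, 0.478 and 7.84 CPM in normal glucose 1, 2 and 3. Normal glucose 3 alone was high. The log2 change was -0.85 (adjusted p = 0.559) with it and 1.15 without it (adjusted p = 0.0808), so its sign rested on that library. KCNK15 and KCNK7 had mean counts of 21.2 and 35.0 and were not called (adjusted p = 0.498 and 0.97). The median log2 change of the 7 loci was -0.55.

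**Figure D3:**
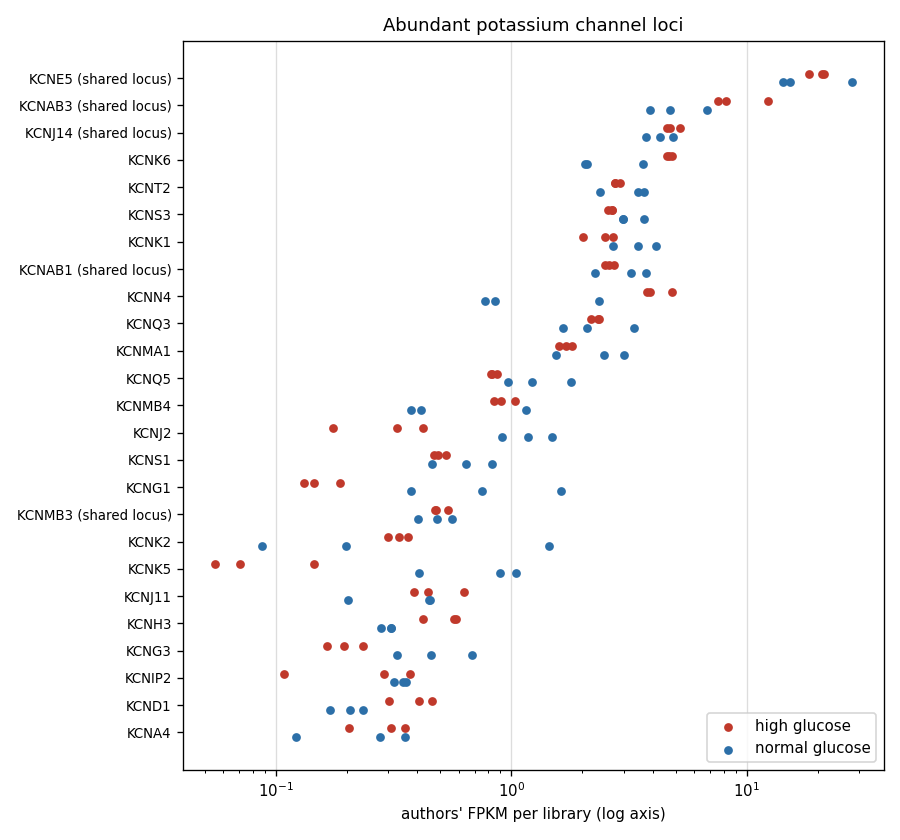
The authors' FPKM (x axis, log scale) in each library for potassium channel loci of high mean FPKM, in order down the page, with high glucose in red above normal glucose in blue. Loci that carry other gene names are marked as shared; KCNK6, KCNT2 and KCNS3 lead those that are not.

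Among channels opened by calcium and their relatives opened by sodium or pH, 2 of 7 retained loci (of 8) rose and none fell, although KCNMA1 and KCNT2 were called lower without normal glucose 3. KCNN4, the intermediate conductance channel opened by calcium through calmodulin (chr19:43766533-43780973, minus strand), was at 16, 15.7 and 20.0 CPM in high glucose 1, 2 and 3, against 3.67, 3.31 and 10.2 CPM in normal glucose 1, 2 and 3. Normal glucose 1 and 2 were close to each other and normal glucose 3 was about midway to high glucose. KCNN4 rose (log2 change 1.59, SE 0.435, adjusted p = 0.0435 by edgeR). The change was 2.30 with normal glucose 3 left out (adjusted p = 6.13e-04). Each of the other omissions left it uncalled, with adjusted p of 0.104, 0.107 and 0.129 for high glucose 1, 2 and 3 and of 0.12 and 0.107 for normal glucose 1 and 2. On the length-scaled FPKM, KCNN4 was second to KCNK6 in high glucose among loci that bear a single name, at 4.16 ± 0.556 FPKM in high glucose and 1.33 ± 0.897 FPKM in normal glucose (SD, n = 3 each). KCNU1, the pH-sensitive channel known from sperm (on chromosome 8), was at 1.37, 1.33 and 1.47 CPM in high glucose 1, 2 and 3, against 0.323, 0.42 and 0.265 CPM in normal glucose 1, 2 and 3. The level was low in both groups, and it rose (log2 change 2.04, SE 0.30, adjusted p = 0.00707 by edgeR).

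KCNMA1, the large conductance channel opened by voltage and calcium, had the most counts of any member with a locus of its own, with 6943, 6557 and 5734 counts in high glucose 1, 2 and 3, against 11636, 9424 and 5796 counts in normal glucose 1, 2 and 3. In CPM it averaged 74.1 ± 4.14 CPM in high glucose and 105 ± 32.7 CPM in normal glucose (SD, n = 3 each), with a log2 change of -0.50 (adjusted p = 0.167). Normal glucose 3 lay at the level of high glucose, and without it KCNMA1 fell by 0.72 (adjusted p = 0.00587). KCNT2, opened by sodium, averaged 2.81 ± 0.0838 FPKM in high glucose and 3.16 ± 0.679 FPKM in normal glucose (SD, n = 3 each), with a log2 change of -0.21 (adjusted p = 0.436). Without normal glucose 3 it fell by 0.37 (adjusted p = 0.0305). The small conductance channels KCNN1, KCNN2 and KCNN3 had mean counts of 20.8, 45.2 and 68.5 and log2 changes of 0.29, 0.52 and 0.93. Of these, KCNN3 was highest in the high glucose libraries without overlap and was not called (adjusted p = 0.129). The median log2 change of the 7 loci was 0.52, with 5 values above and 2 below 0.

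No auxiliary subunit was called among 11 retained loci of 16 with edgeR, and 1 (KCNAB3) had an unadjusted p under 0.05. With DESeq2 the KCNAB3 locus was called (adjusted p = 0.024). KCNAB1, KCNAB2 and KCNAB3 encode beta subunits of KCNA channels. KCNAB3 shares its locus with TRAPPC1, a vesicle tethering gene, and that locus was at 85.3, 52.8 and 57.1 CPM in high glucose 1, 2 and 3, against 33.8, 28 and 49.2 CPM in normal glucose 1, 2 and 3. High glucose 1 stood highest and the groups did not overlap, without a call (log2 change 0.82, adjusted p = 0.0707). Without normal glucose 3 it was called (1.08, adjusted p = 0.0188). KCNAB1 averaged 2.62 ± 0.118 FPKM in high glucose and 3.07 ± 0.744 FPKM in normal glucose (SD, n = 3 each), with a log2 change of -0.27 (adjusted p = 0.365), and its locus lies opposite SSR3. KCNAB2 was at 3.84, 3.54 and 4.72 CPM in high glucose 1, 2 and 3, against 2.96, 12.6 and 4.09 CPM in normal glucose 1, 2 and 3, and normal glucose 2 alone stood high (log2 change -0.70, adjusted p = 0.396). KCNE5 shares its locus with ACSL4, a fatty acid enzyme, and that locus had the highest FPKM of all members, 20.2 ± 1.56 FPKM in high glucose and 19.2 ± 7.65 FPKM in normal glucose (SD, n = 3 each). Its log2 change was 0.03 (adjusted p = 0.942), and 0.42 without normal glucose 3 (adjusted p = 0.0244).

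KCNMB4 and KCNMB3 encode beta subunits of the KCNMA1 channel. KCNMB4 was at 6.04, 4.99 and 5.35 CPM in high glucose 1, 2 and 3, against 2.51, 2.27 and 7.06 CPM in normal glucose 1, 2 and 3. Normal glucose 3 was the highest of the 6 libraries while the other normal libraries were the lowest (log2 change 0.47, adjusted p = 0.501), and without it KCNMB4 was called higher (1.19, adjusted p = 0.00536). KCNMB3 had log2 change 0.00 (adjusted p = 0.99) in a locus opposite PIK3CA. KCNIP2 and KCNIP3, calcium-binding partners of KCND channels, had log2 changes of -0.45 and 0.57 and were not called. In both, high glucose 3 was the lowest library. KCNE1, KCNE3 and KCNE4, small subunits of voltage-gated channels, had mean counts of 27.0, 17.0 and 8.50 and were not called. KCNE4 had the largest log2 change of the family in size, -1.64 (adjusted p = 0.464).

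The 12 called members differed in how far each depended on single libraries. KCNU1, KCNC4 and KCNK12, all higher in high glucose, were called in each of the 6 fits with a library left out, with log2 changes of 1.90 to 2.24, 1.39 to 1.69 and 1.39 to 1.57. Without high glucose 1, 2 and 3, 7, 5 and 5 members were called, and without normal glucose 1, 2 and 3, 9, 9 and 18. The 7 include KCNJ9, which met the count minimum through normal glucose alone. Each such fit rests on 5 libraries, and the called share of protein-coding loci also moved, to 8.46%, 7.39% and 8.01% without high glucose 1, 2 and 3 and to 14.8%, 14.6% and 39.1% without normal glucose 1, 2 and 3. Of the 18 called without normal glucose 3, 11 were among the 12, and the other 7 were not called with all 6 libraries by the same test (KCNAB3, KCNB2, KCNE5, KCNK6, KCNMA1, KCNMB4 and KCNT2). The direction of each of the 12 was the same in every alternative in which it was tested.

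**Figure D4:**
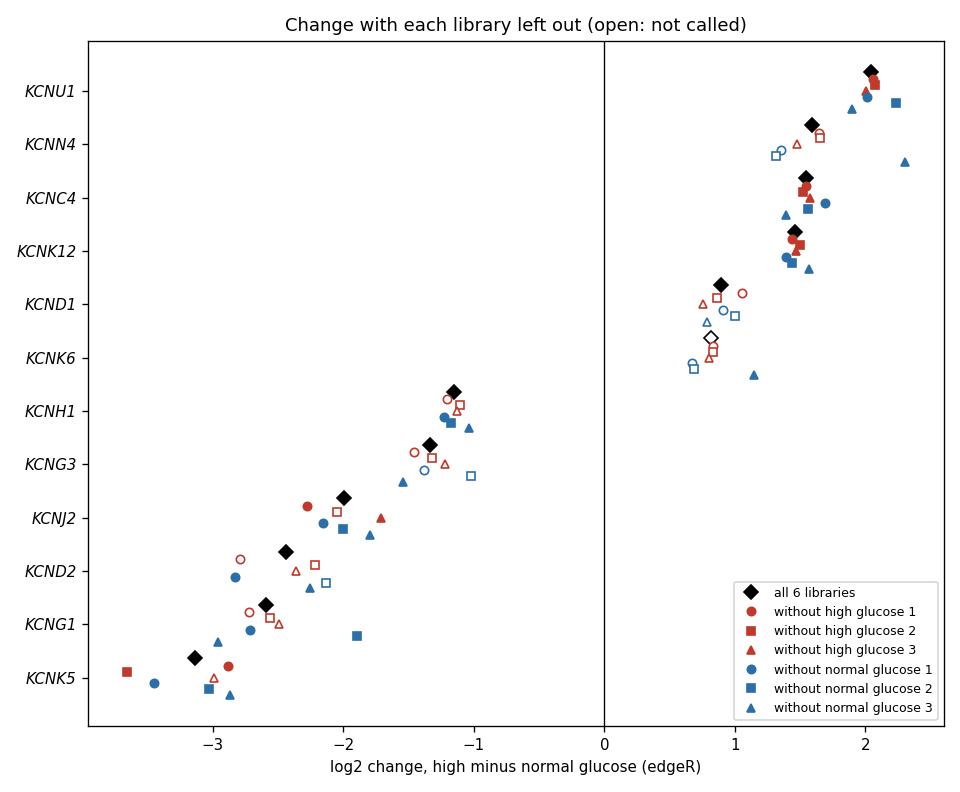
Log2 change (high minus normal glucose, x axis) of 11 of the 12 called members and of KCNK6 with all 6 libraries (black diamonds) and with each library left out (red for a high glucose library, blue for a normal glucose one). Filled marks were called and open marks were not; KCNU1, KCNC4 and KCNK12 are filled throughout.

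Other genes that move potassium or work beside its channels were taken from 4 lists, to be read against the 25.5% of protein-coding loci called (13.1% higher, 12.4% lower). Among pumps and cotransporters, 1 of 13 tested genes (of 23 listed) rose (SLC12A5) and 4 fell (ATP1B3 and FXYD5 among them), with a median log2 change of -0.31. The sodium pump imports the potassium that channels release, and ATP1B3, one of its beta subunits, fell (log2 change -1.52, SE 0.247, adjusted p = 0.0091 by edgeR). ATP1B1, another beta subunit and the most abundant gene of the list by FPKM, had a log2 change of -0.80 (adjusted p = 0.159). Among channel partners, 1 of 10 tested genes (of 16) rose and 1 fell, with a median of 0.06. CALM3, which encodes the calmodulin that KCNN channels carry, rose (log2 change 1.45, SE 0.263, adjusted p = 0.0125 by edgeR), and NEDD4L, a ubiquitin ligase of channels, fell (log2 change -0.63, SE 0.128, adjusted p = 0.0175 by edgeR). CALM2, in a locus with STPG4 and the most abundant gene of the list, encodes the same protein and was not called (log2 change 0.39, adjusted p = 0.179).

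Among anion channels and volume kinases, 2 of 23 tested genes (of 25) rose (BEST3 and LRRC8B) and 6 fell (BEST1, ANO10, CLCN4, CLCN6, CLCN7 and WNK1), with a median of -0.29. CLCN6 and CLCN7, chloride exchangers of endosomes and lysosomes, fell by 1.18 and 1.08 on the log2 scale (edgeR adjusted p = 0.00676 and 0.00687), and OXSR1, a kinase that controls cotransporters, had a log2 change of -0.29 (adjusted p = 0.148). Among calcium entry channels, 2 of 17 tested genes (of 23) rose (TRPV1 and TRPM4) and 2 fell (TRPM7 and TRPC4), with a median of -0.10. TRPV1, a heat- and acid-gated channel in a locus with SHPK, rose by 1.11 on the log2 scale and TRPM7, a channel kinase, fell by 0.96 (edgeR adjusted p = 0.00272 and 0.00358). PIEZO1, a stretch-gated channel and the most abundant of that list, had a log2 change of 0.26 (adjusted p = 0.256). The called counts of these 4 lists, 5, 2, 8 and 4, ranged over the fits with a library left out from 2 to 6, 0 to 5, 4 to 11 and 3 to 7, with the highest of each range without normal glucose 3. ATP1B3, CLCN6, CLCN7, TRPV1 and TRPM7 were called in all 6 of those fits, CALM3 in 4 and NEDD4L in 3.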

How the data were processed

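The members and gene lists were chosen with earlier results of these data known. Per the file headers, the authors deposited 1 table holding counts and FPKM for each locus in each library. The deposited counts are whole numbers whose totals differ between libraries, and the deposited FPKM values were scaled by the authors to length and library size. Bowtie 0.12.2 and mm8, a mouse build, are named in the submitters' processing notes, but all 64 members overlapped their human position in RefSeq GRCh38.p14. Their coordinates are therefore those of the table. The counting tool and its use of strand are not given in the sources used here. 38 members overlap another locus on the other strand, and 7 share a locus with another name. Counts of 4 (9555 values) were more frequent than counts of 3 (4210) or 5 (2659), so 1 fragment may have been counted several times. The length implied by count and FPKM ran from 1.97 to 44.0 kb among members, so FPKM orders genes only roughly.

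Loci were filtered with filterByExpr, scaled by TMM and tested with edgeR 4.0.16 (glmQLFit and glmQLFTest on all 6 libraries with no covariate, 2-sided) in R 4.3.3, and p-values were adjusted over all 25025 loci. CPM are counts scaled to TMM library size, and SE is the log2 change divided by the square root of F. The test was also run on simulated counts with known changes, where the size of the estimated change was checked. False calls among unchanged loci were not counted there, so it does not measure their rate. Alternatives used DESeq2 1.42.0, limma 3.58.1, other scalings and filters, counts divided by 4, a replicate block and each library left out. Named are the called members, the 3 most abundant and the most changed member of each family, and up to 3 genes of each other list; other members named were added to account for every locus. Some genes are not reported here by name, although they stay in the counts. Where a listed gene occurs in several loci, the one with the most counts was used.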

Additional observations from a re-analysis of the deposited data

How the results depend on the processing

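Scaling by DESeq2 size factors or upper quartiles, no filter, a minimum of 12 counts in all 6 libraries, protein-coding loci only and counts divided by 4 left 5 to 8 members called higher and 5 or 6 lower, against 6 and 6, and their family counts stayed within 1.5 times. In those settings 19.5% to 30.8% of protein-coding loci were called. The DESeq2 Wald test called 9 higher and 8 lower, with 2 inward rectifiers, 1 auxiliary subunit and 5 channel partners. KCNJ9, which met the count minimum through normal glucose alone, is among these inward rectifiers. With limma on log2(FPKM + 0.1) the counts were 2 inward rectifiers, KCNJ9 again among them, and 3 voltage-gated channels. With limma on log2(FPKM + 1) they were 2 members lower, 2 voltage-gated channels and 3 pumps and cotransporters. These limma fits lost 4 and 5 of the 12 calls, and low values move little on that scale. Of protein-coding loci, they called 24.1% and 23.2%. Same-numbered libraries did not deviate together over all tested loci (r = -0.017, -0.00076 and -0.0094). That does not settle whether the numbers pair them, which the labels do not say. With a replicate block, 5 members were called higher and 4 lower, with 4 voltage-gated channels, 3 pumps and cotransporters and 1 channel partner. KCND1, KCND2 and KCNG3 were not called. Calls fell among all protein-coding loci as well, to 13.9% with the block from 25.5% without it.

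With each library left out in turn, the counts ran from 4 to 9 members higher and 1 to 9 lower, 0 to 2 inward rectifiers, 2 to 7 voltage-gated, 1 to 3 tandem pore and 1 to 4 calcium-activated channels, and 0 to 3 auxiliary subunits. The 2 inward rectifiers, called without high glucose 1, were KCNJ2 and KCNJ9. The other lists ran from 2 to 6 pumps and cotransporters, 0 to 5 channel partners, 4 to 11 anion channels and volume kinases, and 3 to 7 calcium entry channels. The sign of some uncalled members changed. KCNQ3 ran from -0.28 to 0.24 over the omissions and was 0.013 with limma on log2(FPKM + 0.1). KCNK2 ran from -1.36 to 1.15 (0.12 with the replicate block) and KCNE5 from -0.14 to 0.42. The cause was not tested. Depth limits the members with few counts, since 30 of the 64 had a mean count under 100, and a change in these that missed the threshold is not shown to be absent.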

Other observations

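10 further rows carry a potassium channel symbol but hold no annotated protein-coding transcript, so they are not among the 64 members. Each holds 1 assembled transcript. A locus named for KCNAB2, a beta subunit gene, had 31, 45 and 18 counts in high glucose 1, 2 and 3, against 1, 4 and 1 in normal glucose 1, 2 and 3. It reached 12 counts in high glucose alone, and its log2 change is therefore not given. A locus named for KCNN3 had 56, 16 and 12 counts in high glucose 1, 2 and 3, against 4, 4 and 0 in normal glucose 1, 2 and 3, and the same holds for it. A locus named for KCNT2, on the strand opposite to the gene, had 118, 90 and 105 counts in high glucose 1, 2 and 3, against 363, 189 and 125 in normal glucose 1, 2 and 3 (log2 change -1.12, adjusted p = 0.0903). They were picked with their values in view.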
